A study of Mus musculus with 4 samples.

Results

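Retinoic acid is a small lipid signal made from vitamin A, and 10 genes that make it, destroy it, bind it in the cytosol or receive it in the nucleus were described here in sorted mouse kidney cells. They were chosen by symbol, and all 10 were found among the 52636 gene identifiers of the deposited count files. They comprise the synthesizing enzymes Aldh1a1, Aldh1a2 and Aldh1a3, the degrading enzymes Cyp26a1 and Cyp26b1, the receptors Rara, Rarb and Rarg, and the cytosolic binding proteins Crabp1 and Crabp2. All 10 were among the 18172 genes that passed the filter on low counts.

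Retinol is oxidized to retinaldehyde, which the Aldh1a enzymes turn into retinoic acid, and Cyp26 enzymes of the cytochrome P450 family oxidize retinoic acid to forms that are cleared. The receptors bind DNA as pairs with RXR proteins and activate genes when retinoic acid is bound. In the developing mouse kidney Aldh1a2 is known from the stroma, the supporting mesenchyme around the nephron progenitors. Signaling through Rara and Rarb there is known to sustain Ret, the receptor that drives branching of the ureteric bud.

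The study compared 2 control libraries with 2 libraries labelled Brg1-cKO, where cKO usually stands for conditional knockout. Smarca4 encodes Brg1, an ATPase that powers SWI/SNF complexes, which move and evict nucleosomes. Each library came from 3000 kidney cells purified by fluorescence-activated sorting. The sources used here name no marker for the sort, no age, no deleting allele and no number of animals, so the p-values rest on library-to-library spread alone, and that spread may be technical.

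The libraries held 35411905 and 37999342 reads on genes in control, and 14645665 and 10922272 in Brg1-cKO. Smarca4 was at 898 and 937 CPM (reads scaled to each library's reads on tested genes, with TMM factors) in control and at 760.1 and 691 CPM in Brg1-cKO. The counts cover the whole gene, so exons outside a deleted part can be included. Uniquely aligned reads that matched no gene made up 15.4% to 16.5% in control and 49.5% to 57.2% in Brg1-cKO. The Brg1-cKO pair also differed more from each other, with a biological coefficient of variation of 1.15 against 0.174 in control. Xist, expressed from an inactive X chromosome, was at 217 to 244 CPM in control and 836 to 1205 CPM in Brg1-cKO, and the Y-linked Ddx3y at 76.0 to 78.8 and 1.05 to 3.27 CPM. The sex of the cells and the genotype thus cannot be told apart, and the part of read quality in the results that follow was not tested.

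On mm10 with GENCODE M21 annotation, all 10 genes are protein-coding. Aldh1a1 lies on chromosome 19 from 20492715 to 20643465, Aldh1a2 on chromosome 9 from 71215789 to 71296243 and Aldh1a3 on chromosome 7 from 66390890 to 66427517. Cyp26a1 lies on chromosome 19 from 37697798 to 37701536 and Cyp26b1 on chromosome 6 from 84571414 to 84593908. The receptor genes lie on chromosome 11 from 98927818 to 98974942 (Rara), chromosome 14 from 16430839 to 16819156 (Rarb) and chromosome 15 from 102234938 to 102257517 (Rarg). Crabp1 lies on chromosome 9 from 54764748 to 54773110 and Crabp2 on chromosome 3 from 87948666 to 87953376. Rarb shares 1793 of its 5265 exon bases with Top2b on the opposite strand, and 227 with the antisense gene Gm48162. Whether counting used strand is unknown, so it is not known which Rarb reads in those parts were counted. The other members shared no exon sequence with another gene.

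Cyp26a1 and Rarb are textbook targets of the receptors, through a pair of 6-base units in the same direction with 5 bases between them. RefSeq start windows, from 250 bases before to 50 bases after a start on GRCm38.p6, were at hand for 8 of the 10 members, in 13 windows. Both strands were searched for any unit out of AGGTCA (the consensus), the variant AGTTCA, the variant GGGTCA or the variant GGTTCA followed, after 5 bases, by any of them. The repeat was found in 2 of the 13 windows, those of Rarb and Cyp26a1, and in 0.0974% of all 32851 windows of the same length. With 2 bases between the units it was in 0 of the 13 and in 0.268% of all. Both stretches are shown because the levels of these genes are compared with each other further on, where Rarb did not follow Cyp26a1. The 6-base units are in capitals, and each stretch is read 5′ to 3′ in the direction of its gene.
Rarb, chr14:16575491-16575551, minus strand: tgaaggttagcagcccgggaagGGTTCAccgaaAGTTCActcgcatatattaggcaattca
Cyp26a1, chr19:37697754-37697797, plus strand: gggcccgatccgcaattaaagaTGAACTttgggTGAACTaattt
The Rarb repeat is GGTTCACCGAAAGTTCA in the direction of the gene, and 36 bases separate it from the start. The Cyp26a1 repeat is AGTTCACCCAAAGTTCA on the strand opposite to the gene, and 15 bases separate it from the start. A match describes the sequence and is not evidence that the site was used in these cells.

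Cyp26a1, the degrading enzyme, was the member that stood furthest above control in Brg1-cKO, and the receptor Rarg the one that stood furthest below. Aldh1a2, by far the most abundant of the 10, was slightly lower, as were Rara and Rarb. For the 5 other members the Brg1-cKO values overlapped the control values or lay on both sides of them. With Benjamini-Hochberg adjustment, 0 of the 10 members passed a threshold of 0.05 by edgeR's quasi-likelihood test. Of all 18172 genes 0 passed (0% of those tested), and no adjusted p was below 0.166. Without adjustment 3 members had a p under 0.05, Cyp26a1 higher and Rarg and Aldh1a2 lower, beside 18.3% of all tested genes (5.44% higher and 12.9% lower). Among 10366 genes at 10 CPM or more in 2 libraries, 833 were higher and 594 lower at that threshold. Of the 8 members tested there, 1 was higher and 2 lower. The shares over all tested genes thus hold an excess of lower genes that this filter removes, here and for the lists below. The CPM values of the groups did not overlap for 5 of the 10 members, 1 higher and 4 lower, beside 52% of all tested genes (17.5% higher and 34.5% lower). The share of members without overlap is thus close to the background. An exact permutation test of a single gene over 2 against 2 libraries cannot go below p = 0.333. The median log2 fold change of the 10 was -0.19 and that of all tested genes was -0.06.

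**Figure D1:**
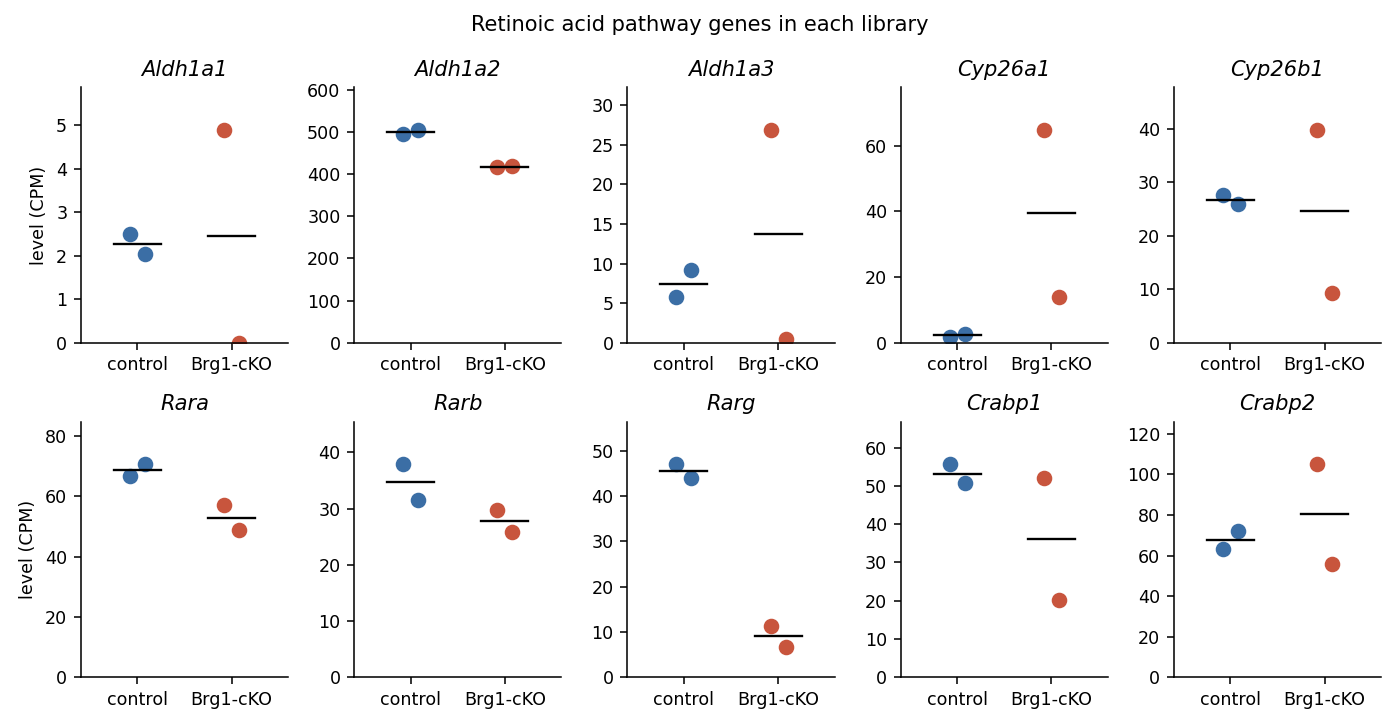
Level in CPM of each of the 10 genes in the 2 control (blue) and 2 Brg1-cKO (red) libraries, on linear axes that start at 0 and differ between genes, with the group mean as a black line. Cyp26a1 is higher and Rarg lower in both Brg1-cKO libraries, and Aldh1a1, Aldh1a3 and Cyp26b1 have 1 Brg1-cKO library above and 1 below control.

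Among the synthesizing enzymes, Aldh1a2 accounted for nearly all of the signal in every library. It was at 496 and 506 CPM in control and at 417 and 419.7 CPM in Brg1-cKO. Both Brg1-cKO libraries were below both controls, and each pair agreed closely. The log2 fold change was -0.26 (SE 0.09), with an unadjusted p of 0.0415 (edgeR adjusted p = 0.247). With DESeq2 the unadjusted p was 0.109, and with size factors from the RLE method 0.0799. In a sorted population, fewer cells of a type and less RNA per cell cannot be told apart, here and for the genes that follow.

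Aldh1a3, a related enzyme, was scarce in control, at 5.79 and 9.13 CPM. It was at 26.9 CPM (385 reads) in Brg1-cKO replicate 1 and at 0.467 CPM (5 reads) in replicate 2. One Brg1-cKO library was thus above both controls and the other below both. Its log2 fold change of 0.88 had an SE of 1.82 (edgeR adjusted p = 0.869) and takes its sign from replicate 1. Without replicate 1 it was -4.01, and without replicate 2 it was 1.83. Aldh1a1 was at 2.49 and 2.05 CPM in control, at 4.89 CPM in Brg1-cKO replicate 1 and at 0 reads in replicate 2, where a count of 0 allows up to 0.280 CPM. Its log2 fold change was 0.11 (SE 2.35, edgeR adjusted p = 0.988), and no difference was detectable for it.

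Per kilobase of exon, the scale on which genes can be compared, the share of Aldh1a2 in the summed level of the 3 synthesizing enzymes was 99.2% and 98.9% in control. It was 96.4% and 99.9% in Brg1-cKO. That level of Aldh1a2 was 221 ± 3.10 CPM per kb in control (SD, n = 2), above 99.4% of all tested genes. By the shape of its values over the 4 libraries, the genes most like Aldh1a2 among 9865 tested genes with a mean of at least 10 CPM and no predicted or clone name (Gm or Rik) were Eif4b, Gnai2 and Nfatc3. Likeness was the distance between log2(CPM + 1) values centred on each gene's mean, and it came to 0.0133, 0.0187 and 0.0189. These genes had log2 fold changes of -0.26, -0.27 and -0.27. With 4 libraries many genes can share a shape, and the distances describe these libraries only.

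Of the degrading enzymes, Cyp26a1 was at 1.82 and 2.62 CPM in control (65 and 101 reads). It was at 64.8 CPM in Brg1-cKO replicate 1 and at 14.01 CPM in replicate 2 (927 and 150 reads). Both Brg1-cKO libraries were far above both controls, by 29.2-fold and 6.32-fold over the control mean, and they differed from each other by 4.62-fold. The log2 fold change was 4.15 (SE 0.99), with an unadjusted p of 0.0147 (edgeR adjusted p = 0.166). Of 3335 tested genes whose control level lay within 2-fold of that of Cyp26a1, 18 (0.54%) had a log2 fold change at least as high. Cyp26a1 was already known as the member furthest above control, so this share carries no test. Without Brg1-cKO replicate 1 the log2 fold change was 2.63, and without replicate 2 it was 4.84.

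Cyp26b1, the second enzyme of this kind, did not share the difference. It was at 27.6 and 25.9 CPM in control, at 39.8 CPM in Brg1-cKO replicate 1 and at 9.34 CPM in replicate 2. One Brg1-cKO library was above control and the other below. The log2 fold change was -0.12 (SE 0.79, edgeR adjusted p = 0.962). It was 0.55 without Brg1-cKO replicate 2 and -1.55 without replicate 1. Cyp26c1, the remaining Cyp26 gene, was at 0.207 CPM or less in every library and was not tested.

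The make-up of the degrading pair was alike in both Brg1-cKO libraries although their levels were not. Per kilobase, Cyp26a1 was 15.1% and 21.4% of the pair in control and 81.4% and 80.2% in Brg1-cKO. The ratio of Cyp26a1 to Cyp26b1 was 0.178 and 0.273 in control and 4.39 and 4.05 in Brg1-cKO. The summed level of both was 6.08 and 6.16 CPM per kb in control, and 40.1 and 8.81 CPM per kb in Brg1-cKO. These shares were computed after the values had been seen and carry no test.

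**Figure D2:**
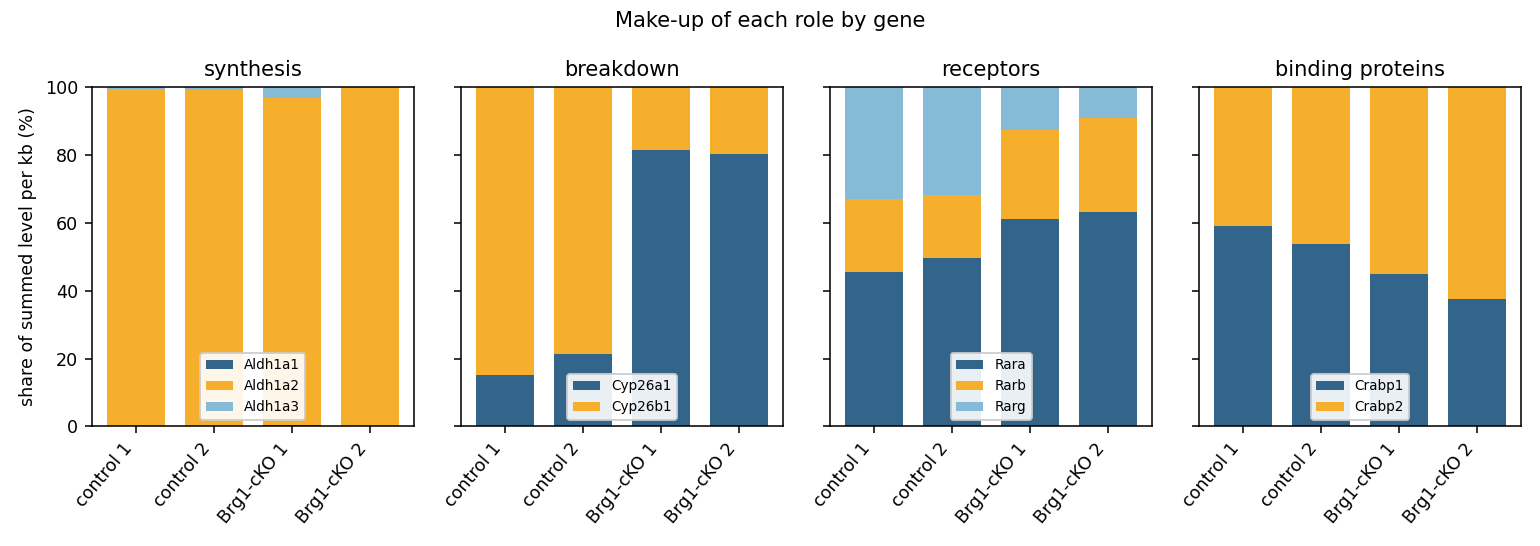
Share of each gene in the summed level per kilobase of exon of its role (percent, 0 to 100) in each of the 4 libraries, for the synthesizing enzymes, the degrading enzymes, the receptors and the cytosolic binding proteins. Cyp26a1 makes up about 80% of the degrading pair in both Brg1-cKO libraries (81.4% and 80.2%) and at most 21.4% in control, and the Rarg share of the receptors is 12.5% and 8.95% in Brg1-cKO against 33.0% and 31.8% in control.

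The 3 receptor genes all stood below control in each Brg1-cKO library, Rarg by far the most. Rarg, the receptor known for roles in skeleton and epithelia, was at 47.0 and 44.1 CPM in control and at 11.4 and 6.73 CPM in Brg1-cKO. It was 3.997-fold and 6.77-fold below the control mean in the 2 Brg1-cKO libraries. The log2 fold change was -2.33 (SE 0.45), with an unadjusted p of 0.00640 (edgeR adjusted p = 0.166). Of 4881 tested genes with a control level within 2-fold of that of Rarg, 40 (0.82%) were at least as far below control. As for Cyp26a1, this share carries no test. For the members other than Cyp26a1 and Rarg, the share in each gene's own direction ran from 18.5% (Crabp1) to 43.5% (Cyp26b1). For Aldh1a2 it was 21.7%. The log2 fold change of Rarg was -2.79 without Brg1-cKO replicate 1 and -2.02 without replicate 2.

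Rara, the broadly expressed receptor, was at 66.5 and 70.5 CPM in control and at 57.0 and 48.7 CPM in Brg1-cKO. The groups did not overlap, and the log2 fold change of -0.38 (SE 0.23) had an edgeR adjusted p of 0.515. Rarb was at 37.9 and 31.6 CPM in control and at 29.7 and 25.9 CPM in Brg1-cKO. Its groups stood apart by less than the controls differed from each other. Its log2 fold change was -0.32 (SE 0.33, edgeR adjusted p = 0.707). Rarb thus did not follow Cyp26a1, the other gene with the 5-spaced repeat at its start.

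Per kilobase, the order of the receptors in control was Rara at 15.7 ± 0.646, Rarg at 10.7 ± 0.490 and Rarb at 6.59 ± 0.848 CPM per kb (SD, n = 2). The values of neighbours in that order did not overlap. In Brg1-cKO the order was Rara at 12.1 ± 1.34, Rarb at 5.28 ± 0.514 and Rarg at 2.13 ± 0.774 CPM per kb. The share of Rarg in the summed receptor level was 33.0% and 31.8% in control and 12.5% and 8.95% in Brg1-cKO. That summed level was 33.5 and 32.5 CPM per kb in control and 21.4 and 17.6 CPM per kb in Brg1-cKO.

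Of the cytosolic binding proteins, which carry retinoic acid within the cell, Crabp1 was at 55.6 and 50.8 CPM in control. It was at 52.1 CPM in Brg1-cKO replicate 1, within the control range, and at 20.3 CPM in replicate 2. The log2 fold change was -0.55 (SE 0.54, edgeR adjusted p = 0.693). It was -0.05 without replicate 2 and -1.42 without replicate 1 (edgeR adjusted p = 3.24e-06), where a single Brg1-cKO library is left. Crabp2, known to deliver retinoic acid to the receptors, was at 63.3 and 72.1 CPM in control and at 104.9 and 55.7 CPM in Brg1-cKO. One Brg1-cKO library was above and the other below control, and the log2 fold change was 0.25 (SE 0.38, edgeR adjusted p = 0.816).

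The ratio of Crabp2 to Crabp1 per kilobase was nonetheless above control in both Brg1-cKO libraries. It was 0.691 and 0.860 in control and 1.22 and 1.67 in Brg1-cKO. As for the degrading pair, this ratio was computed after the values had been seen and carries no test. Per kilobase both genes ranked high in control, Crabp1 above 96.9% and Crabp2 above 95.5% of tested genes.

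**Figure D3:**
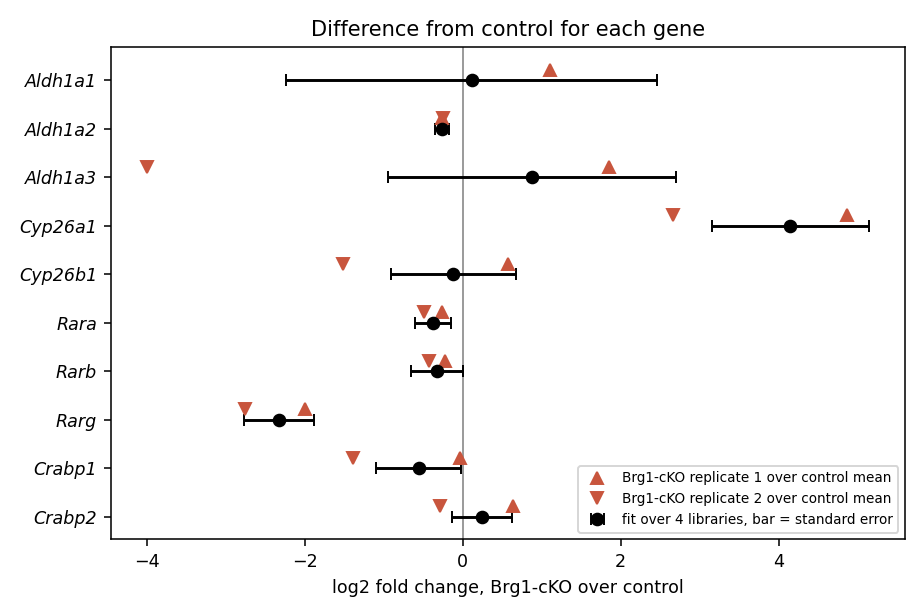
Log2 fold change of Brg1-cKO over control for each gene, with black points for the fit over 4 libraries (bars are standard errors) and red triangles for each Brg1-cKO library over the control mean; replicate 2 of Aldh1a1 is not drawn because its count is 0. The triangles of Aldh1a2, Rara, Rarb and Rarg lie left of 0 and those of Cyp26a1 right of 0, while those of Aldh1a3, Cyp26b1 and Crabp2 lie on both sides.

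The Brg1-cKO libraries differed from each other in the same direction for most members. The level was higher in replicate 1 than in replicate 2 for 9 of the 10, all but Aldh1a2, beside 49.6% of 10274 tested genes with a mean of at least 10 CPM. On the log2(CPM + 1) scale the difference within the Brg1-cKO pair was 4.25 for Aldh1a3, 2.13 for Cyp26a1 and 1.98 for Cyp26b1. For Aldh1a2 it was 0.0109, and for those 10274 genes its median was 0.659. Within the control pair it was at most 0.578 for any member. The genes of highest spread within Brg1-cKO were thus those of synthesis and breakdown other than Aldh1a2, while Rara and Rarb were at 0.223 and 0.192.

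On all 4 libraries, 2 members passed the adjusted threshold in other tests. With DESeq2 these were Cyp26a1 (adjusted p = 3.28e-04) and Rarg (adjusted p = 0.00297), where 5.36% of all genes passed. With edgeR's likelihood ratio test they had adjusted p-values of 0.00403 and 0.00436, where 13.6% of all genes passed. With limma-voom they did not pass (adjusted p = 0.260 and 0.114), where 1.8% of all genes did, nor with the replicate number as a block, where 0.858% did. Without either control library 0 members passed, beside 0.0818% and 0.0817% of all genes. Without Brg1-cKO replicate 1 all 10 passed, beside 55.5% of all genes, and without replicate 2 it was 7, beside 60.6%. In those fits the remaining Brg1-cKO library is assumed to vary like the controls. These tools read the same counts and are no separate support.

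Upstream of the members, genes of retinol supply and retinaldehyde formation lay on both sides of control. Of 23 genes on this list 13 were tested, of which 7 were higher and 6 lower, with a median log2 fold change of 0.15. The 10 others did not pass the filter, and 8 of them were at 0 reads in both Brg1-cKO libraries. These 8 had few or no reads in control as well. Ttr and Dhrs9 had 0 reads there, and Rbp4 had the most, 8 and 41. Rdh16, a retinol dehydrogenase named after its values were seen, had 1 and 2 reads in control, 0 in Brg1-cKO replicate 1 and 241 (22.5 CPM) in replicate 2, and it failed the filter because its reads lie in 1 library. Rdh11, a retinol dehydrogenase, was the only gene of the 13 to pass 0.05 before adjustment, beside 18.3% of all tested genes (5.44% higher). Its edgeR adjusted p was 0.267. It was at 27.2 and 35.3 CPM in control and at 51.3 and 122 CPM in Brg1-cKO, a log2 fold change of 1.48 (SE 0.52). Both Brg1-cKO libraries were above both controls, but they differed from each other more than the nearest of them did from control.

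Some enzymes of this step were named for their role after their values were seen. Rdh10, the main retinol dehydrogenase of the mouse embryo, was at 95.8 and 90.8 CPM in control and at 132 and 75.1 CPM in Brg1-cKO, on both sides of control. Dhrs3, which returns retinaldehyde to retinol, was at 44.4 CPM in both controls and at 32.2 CPM in both Brg1-cKO libraries. Its log2 fold change was -0.46, with an unadjusted p of 0.166. Stra6, the membrane receptor that takes up retinol, was at 52.6 and 63.3 CPM in control and at 29.6 and 46.1 CPM in Brg1-cKO (log2 fold change -0.62, unadjusted p = 0.148 in edgeR's test).

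Of the 15 partner receptors and cofactors, all tested, 5 were higher and 10 lower, with a median log2 fold change of -0.15, where 8546 of all tested genes were higher and 9626 lower. At an unadjusted p under 0.05 there were 4 of the 15, beside 18.3% of all tested genes, among them Crebbp and Rxrg lower and Nr2f6 higher. Crebbp, a histone acetyltransferase that serves as coactivator, was at 288 and 305 CPM in control and at 217 and 198 CPM in Brg1-cKO (log2 fold change -0.52, SE 0.12). Nr2f6, an orphan nuclear receptor, was at 91.4 and 97.8 CPM in control and at 132 and 156 CPM in Brg1-cKO (log2 fold change 0.61, SE 0.18). The groups overlapped for neither of these genes.

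The RXR partners differed among themselves. Rxrg was at 2.15 and 2.39 CPM in control and at 0 reads in both Brg1-cKO libraries, at least 18.9-fold lower against a floor of 3 reads over the group. It fell below the level set for naming genes and is named because the count holds only 4. Rxra was at 74.4 and 68.7 CPM in control and at 60.1 and 91.5 CPM in Brg1-cKO, on both sides of control. Rxrb was at 71.9 and 73.0 CPM in control and at 120.7 and 54.6 CPM in Brg1-cKO, likewise on both sides.

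Genes known to respond to retinoic acid in some tissue included stromal and bud genes that stood below control. Of 16 on this list 15 were tested, of which 5 were higher and 10 lower, with a median log2 fold change of -0.41 beside -0.06 for all tested genes. Of all 18172 tested genes 9626 were lower. At an unadjusted p under 0.05 there were 4 of the 15, all lower, beside 12.9% of all tested genes, namely Meis1, Ecm1, Ret and Meis2. Cyp26a1 and Rarb, which are responsive too, were left out of this list because they are members.

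Ret was at 20.96 and 22.2 CPM in control, at 0 reads in Brg1-cKO replicate 1 and at 0.187 CPM in replicate 2. Ecm1, an extracellular matrix protein of the kidney stroma that is known to confine Ret to the tips of the bud, was at 74.5 and 86.2 CPM in control and at 38.4 and 32.9 CPM in Brg1-cKO (log2 fold change -1.17, SE 0.25). Meis1, a homeobox factor of the stroma, was at 178 and 169 CPM in control and at 66.6 and 69.9 CPM in Brg1-cKO (log2 fold change -1.35, SE 0.16). Meis2, its relative, was at 423 and 405 CPM in control and at 313 and 308 CPM in Brg1-cKO (log2 fold change -0.41, SE 0.10). For each of the 4 genes the Brg1-cKO values lay below the control values, and their adjusted p-values from edgeR's quasi-likelihood test were at or above 0.166.

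Of the 31 genes with the 5-spaced repeat in a RefSeq start window, 7 were tested, of which 4 were higher and 3 lower. Their median log2 fold change was 0.26, beside -0.06 for all tested genes, and Cyp26a1 ranked first among them. The 7 include Cyp26a1 and Rarb themselves, so this set is no separate support. Only Cyp26a1 had an unadjusted p under 0.05 in edgeR's quasi-likelihood test, beside 18.3% of all tested genes. Of 84 genes with the 2-spaced repeat 12 were tested, with 6 higher, 6 lower and a median of -0.02. Of these 12, 1 had an unadjusted p under 0.05 and was lower.

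**Figure D4:**
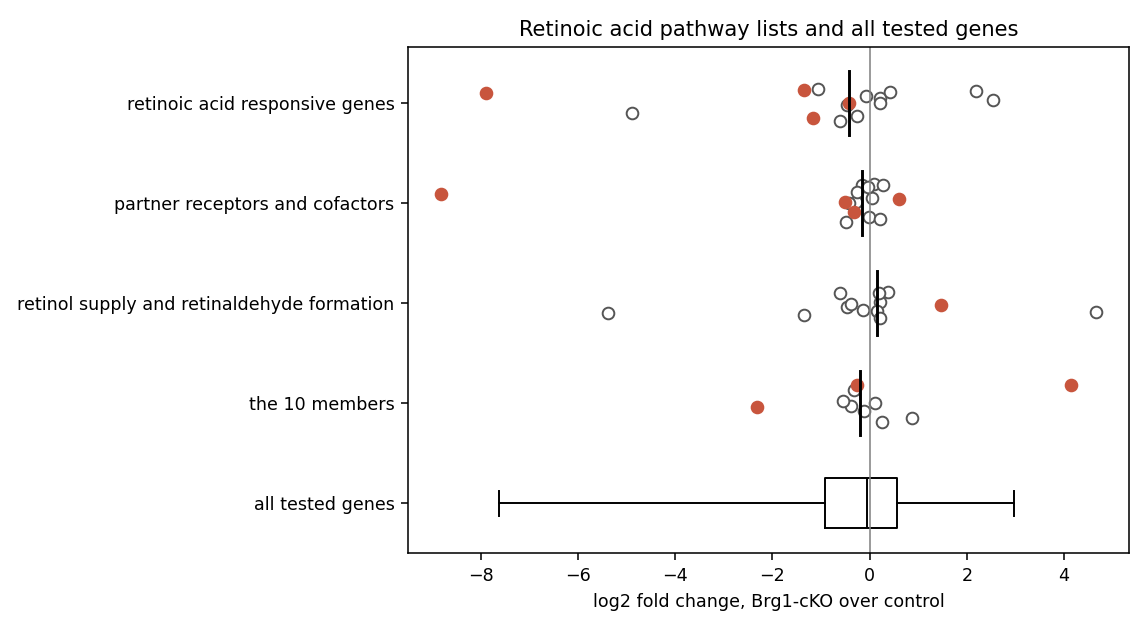
Log2 fold change of Brg1-cKO over control for the tested genes of 4 lists, with filled red points for an unadjusted p under 0.05 in edgeR's quasi-likelihood test, open points for the rest and a black line at each list's median; the box at the bottom spans the quartiles of all 18172 tested genes with whiskers at the 5th and 95th percentiles. The medians lie between -0.41 and 0.15, and Cyp26a1 at 4.15 is the highest of the 10 members, while the points of Rxrg (-8.82) and Ret (-7.88) were fitted against 0 and 2 reads and depend on the prior count.

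Marker genes of the cell types that the sort could hold moved with these results, and their part in them was not tested. Of 16 stroma markers 13 were lower in Brg1-cKO, and the 16 summed to 4240.4 and 4187 CPM in control and 2755 and 2592 CPM in Brg1-cKO. The 3 stroma markers that were higher were Col1a2, Tcf21 and Nr2f1. Col1a2 was at 591 and 585 CPM in control and at 748 and 710 CPM in Brg1-cKO, without overlap. Tcf21 and Nr2f1 each had 1 Brg1-cKO library above and 1 below control. Of 16 ureteric bud markers 13 were lower, and the 16 summed to 444 and 439 CPM in control and 352 and 232 CPM in Brg1-cKO. Wnt9b, Wnt7b and Calb1 were at 0 reads in both Brg1-cKO libraries. The 3 that were higher were Hoxb7, Tfap2b and Emx2. Emx2 was at 57.4 and 51.9 CPM in control and at 74.7 and 77.8 CPM in Brg1-cKO. Hoxb7 was at 23.5 and 29.4 CPM in control and at 98.2 and 27.0 CPM in Brg1-cKO. Ret is itself one of these bud markers, and Meis1 and Meis2 are on the stroma list. Stroma markers were detected in every library, as Foxd1, which defines the stroma, was at 180.2 and 171 CPM in control and at 91.4 and 137 CPM in Brg1-cKO.

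Most markers of nephron cells stood higher. Podocyte markers were higher in 15 of 15, summing to 1750.4 and 1749 CPM in control and 4528 and 4356 CPM in Brg1-cKO. Early nephron markers were higher in 12 of 15 (1751 and 1769 against 2985 and 2748 CPM), and nephron progenitor markers in 10 of 14 (2555 and 2556 against 3355 and 3141 CPM). Six2 and Meox1 were among the 4 progenitor markers that were lower. Six2 was at 242 and 237 CPM in control and at 234 and 126 CPM in Brg1-cKO. Meox1 was at 38.7 and 33.3 CPM in control and at 28.9 and 6.17 CPM in Brg1-cKO. Mesothelium markers, of the lining of the organ, were split, with 4 of 8 tested genes higher (96.8 and 98.1 against 205 and 151 CPM). Upk3b was at 2.29 and 1.66 CPM in control and at 37.9 and 64.5 CPM in Brg1-cKO. Msln, Upk1b, Gpm6a and Bnc1 were at 0 reads in both Brg1-cKO libraries. They were scarce in control too, where Gpm6a, the most abundant of them, was at 3.75 and 4.30 CPM. Endothelium markers were lower in 12 of 12 (786 and 798 against 403 and 277 CPM) and immune markers in 11 of 12 (182 in both controls against 68.1 and 66.6 CPM, with C1qa at 0 reads in both Brg1-cKO libraries). Erythroid markers were scarce, summing to at most 1.53 CPM in control and to 29.6 and 4.11 CPM in Brg1-cKO, where Hba-a1, Hba-a2 and Hbb-bh1 were at 0 reads and 3 of 10 were tested, 2 of them higher. The lists share some genes with each other.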

How the data were processed

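The authors deposited raw read counts, 1 whole number per gene, for each of 4 libraries. Per the labels' protocols, mRNA from 3000 cells per library was made into random-primed stranded libraries and read as single-end 75 bp. Per the submitters' processing notes, TopHat, DESeq2 and the mm10 build were named without versions. The sources used here do not give the counting tool, its strand setting or the annotation.

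Of 52636 identifiers 52403 matched a GENCODE M21 symbol. Reads given to no gene, 31.8% to 32.4% of all reads in control and 65.5% to 72.1% in Brg1-cKO, entered neither the library sizes nor the tests. Intervals and floors cover counting error only, and a count of 0 allows 3 reads, or 0.0778 to 0.280 CPM. Counts were fitted with edgeR 4.0.16 in R 4.3.3 (TMM, default expression filter with minimum count 10, robust quasi-likelihood test, Benjamini-Hochberg adjustment over all tested genes at 0.05), with group as the only term. The functions were tested on simulated data with the control spread in both groups. That check does not cover the wider spread seen in Brg1-cKO. Replicates differed by more than counting noise (chi-square per gene 9.36 in control and 127 in Brg1-cKO). The SE is the log2 fold change over the root of F, and per-kilobase values use the summed exon length. Alternatives were DESeq2 1.42.0, limma-voom 3.58.1, the likelihood ratio test, other scalings and filters, a replicate block and each library left out. Dispersions without robust estimation were added after seeing the data.

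The members, lists and tests were chosen with earlier results of these data known. Named are all members, list genes with an unadjusted p under 0.05 and at least 5 CPM in the higher group (up to 10 a list), and the 3 genes most like the most abundant member. Exceptions are stated where they occur. Not every list gene is reported here.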

Additional observations from a re-analysis of the deposited data

Results flagged for a closer look

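Reads that aligned uniquely but were given to no gene, which enter no comparison here, made up 53.4% ± 5.47 of uniquely aligned reads in Brg1-cKO against 15.9% ± 0.775 in control (SD, n = 2). Their level in Brg1-cKO is above that in control in both libraries.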

How the results depend on the processing

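The log2 fold changes of 6 of the 10 members kept their sign in all 13 alternatives. Aldh1a1 turned to -2.28 with the replicate block, -2.66 with limma-voom, -0.05 without control replicate 2 and -9.01 without Brg1-cKO replicate 1, the last a fitted value against 0 reads. Aldh1a3 turned to -0.92 with the replicate block, -0.77 with limma-voom and -4.01 without Brg1-cKO replicate 1. Crabp2 turned to -0.31 without Brg1-cKO replicate 1, and Cyp26b1 to 0.55 without Brg1-cKO replicate 2. Over the fits that leave out 1 library, Aldh1a1 ran from -9.01 to 1.09, Aldh1a3 from -4.01 to 1.83, Cyp26b1 from -1.55 to 0.55, Crabp1 from -1.42 to -0.05 and Crabp2 from -0.31 to 0.61. The cause was not tested. With all 4 libraries, Cyp26a1 ranged from 3.78 to 4.20 (adjusted p from 3.28e-04 to 0.412) and Rarg from -2.38 to -2.27 (adjusted p from 0.00297 to 0.412).

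Over all genes, 974 passed with DESeq2, 156 with the replicate block, 2471 with the likelihood ratio test and 327 with limma-voom, against 0 by the quasi-likelihood test, which gave 3328 genes at p under 0.05 before adjustment. The unadjusted count at 10 CPM in 2 libraries was 1427 of 10366 tested genes (833 higher, 594 lower). In the main fit it was 988 higher and 2340 lower, so the excess of lower genes was absent under that filter. With the replicate block, which leaves fewer residual degrees of freedom, the unadjusted count was 1137 (611 higher, 526 lower). DESeq2 gave 1549 higher and 1191 lower. The members past the adjusted threshold were 2 with DESeq2 and 2 with the likelihood ratio test. Unadjusted list counts moved from 4 to 2 for partner receptors and cofactors, both at 10 CPM in 2 libraries and with the replicate block. For retinol supply they moved from 1 to 4 with DESeq2, 0 with library totals, 2 without a filter, 3 with the likelihood ratio test, 2 with limma-voom and 2 without robust dispersions.

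Leaving out 1 library gave 16 to 13262 genes past the adjusted threshold and 308 to 14133 at an unadjusted p under 0.05. It gave 0 to 10 members past the adjusted threshold and 1 to 10 at an unadjusted p under 0.05. Unadjusted list counts then ran from 0 to 14 for partner receptors, 1 to 15 for responsive genes and 0 to 12 for retinol supply. The highest counts come from fits with a single Brg1-cKO library, which is assumed to vary like the controls. Same-numbered libraries did not deviate together (correlation -0.02). This cannot decide whether the numbers pair the libraries, as the wider spread in Brg1-cKO could hide a shared deviation. The replicate block changed the adjusted call of 0 members. Depth leaves levels under 0.280 CPM undetectable in the shallowest library, Brg1-cKO replicate 2.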
